A study of Mus musculus with 18 samples.

Results

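*Epb41l3*, *Palmd*, *Sorbs2*, *Arhgef10*, *Fmnl1* and *Tacc1* encode proteins that work at the cytoskeleton, and their RNA levels were followed across the 168FARN and 67NR mouse mammary tumour lines with and without *Kmt2c* or *Kmt2d*. These 6 genes, listed as EPB41L3, PALMD, SORBS2, ARHGEF10, FMNL1 and TACC1 among 24333 symbols common to the count tables of the lines, were picked by symbol because their responses to the knockouts differed most between the lines or fell most in 67NR. Their changes upon knockout and the differences of those changes between the lines are therefore given as descriptions, with no test. No numeric limit was given for that choice, so genes just inside or just outside it cannot be named. All 6 were measured in both tables, and all 6 passed the filter on low counts in 67NR. In 168FARN 5 passed it, and *Palmd* did not.

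Each line was sequenced in 3 groups of 3 replicates: wild-type (WT) cells, cells knocked out (KO) for *Kmt2c*, and cells knocked out for *Kmt2d*. The knockouts were made by CRISPR/Cas9 with guides against exon 1, and the KO cells were sorted pools rather than single clones, so they may still hold unedited cells. In the study's sequencing of the target sites, only 168FARN *Kmt2d* KO had mutant reads alone. The share of mutant reads was lowest in 67NR *Kmt2c* KO. Its immunoblots showed less of the targeted protein in the KO cells of both lines. The WT libraries of 168FARN are named for a control guide and those of 67NR as WT. Replicates were taken 1 passage apart, so the p-values measure the spread between passages of one pool rather than between independent knockouts.

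As background, the plasma membrane of an animal cell is held to the actin cortex by adaptor proteins, small GTPases switch actin assembly on and off, and exchange factors load those GTPases with GTP. Formins are effectors that nucleate and lengthen unbranched actin filaments, while microtubules are organised by a separate set of centrosomal proteins. *Epb41l3* encodes a band 4.1 protein that ties membrane proteins to the spectrin and actin skeleton, *Palmd* encodes palmdelphin of the paralemmin family, and *Sorbs2* encodes an SH3-domain adaptor of focal adhesions and Z-discs. *Tacc1* encodes a coiled-coil protein of the centrosome and of microtubule plus ends. *Arhgef10* encodes a guanine nucleotide exchange factor for such GTPases and *Fmnl1* a formin best known from blood cells, so these last genes act as regulators of actin rather than as scaffolds.

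The libraries held 14359760 to 43427382 counted reads in 168FARN (median 31388954) and 40948529 to 79240801 in 67NR (median 54563427). In every group replicate 3 stood apart from replicates 1 and 2: the median chi-square of their counts over sampling noise was 56.5 to 201 for pairs with replicate 3 and 5.95 to 20.8 for the other pairs. Counts per gene did not check the knockouts, since edits in exon 1 need not lower RNA. *Kmt2c* lay at 45.5 to 117 CPM (read counts scaled to a common library size) in 168FARN WT and 48.0 to 98.5 in its *Kmt2c* KO, and at 55.7 to 64.7 in 67NR WT and 82.9 to 92.2 in its *Kmt2c* KO. *Kmt2d* lay at 106 to 165 CPM in 168FARN WT and 139 to 300 in its *Kmt2d* KO, and at 84.7 to 114 in 67NR WT and 91.0 to 141 in its *Kmt2d* KO. Epithelial markers differed between the lines: their summed level was 2405 to 3797 CPM in 67NR WT, 493 to 768 in its *Kmt2c* KO and 874 to 1537 in its *Kmt2d* KO, against 98.9 to 397 in all 168FARN libraries, where *Epcam* was at 0, and *Krt5* was at 0 in every library. Nearly all of the 168FARN sum was *Krt8*, with group means of 167 to 217 CPM, and each other marker averaged at most 0.11 CPM there. By the thresholds given below, 6 of 6 tested epithelial markers were lower in 67NR upon *Kmt2c* loss and 4 of 6 upon *Kmt2d* loss. Of 8 mesenchymal markers 6 were higher and 1 was lower in both. Of all 13662 genes tested there, 35.3% passed upon *Kmt2c* loss and 25.5% upon *Kmt2d* loss, in either direction. In bulk RNA, fewer cells of a type and less RNA per cell cannot be told apart.

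The sequence at a start site is shown for *Epb41l3*, *Sorbs2* and *Fmnl1*, so that genes of opposite behaviour in 67NR can be set side by side. The RefSeq table held 3 starts for *Epb41l3*, 3 for *Sorbs2* and 1 for *Fmnl1*. *Tacc1*, *Arhgef10* and *Palmd* are named only. Each stretch runs from 250 bases before to 50 bases after the first listed start, on the plus strand of build GRCm38.p6, 5′ to 3′, with CpG dinucleotides in capitals. The regions are chr17:69075427-69075726 for *Epb41l3*, which was higher in 67NR KO cells, chr8:45507538-45507837 for *Sorbs2*, which was lower there, and chr11:103170888-103171187 for *Fmnl1*, which moved in opposite directions in the lines.
Epb41l3: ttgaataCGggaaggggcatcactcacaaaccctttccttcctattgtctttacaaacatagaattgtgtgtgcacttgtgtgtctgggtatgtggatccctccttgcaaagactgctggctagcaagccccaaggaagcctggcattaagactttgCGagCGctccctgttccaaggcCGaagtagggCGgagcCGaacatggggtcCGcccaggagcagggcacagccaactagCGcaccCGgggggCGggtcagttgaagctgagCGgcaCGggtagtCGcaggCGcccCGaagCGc
Sorbs2: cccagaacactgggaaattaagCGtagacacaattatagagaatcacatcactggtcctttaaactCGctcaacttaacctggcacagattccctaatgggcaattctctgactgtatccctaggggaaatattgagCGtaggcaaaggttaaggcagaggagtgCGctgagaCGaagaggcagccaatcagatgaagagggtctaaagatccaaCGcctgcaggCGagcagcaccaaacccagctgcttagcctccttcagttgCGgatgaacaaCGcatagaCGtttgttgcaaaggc
Fmnl1: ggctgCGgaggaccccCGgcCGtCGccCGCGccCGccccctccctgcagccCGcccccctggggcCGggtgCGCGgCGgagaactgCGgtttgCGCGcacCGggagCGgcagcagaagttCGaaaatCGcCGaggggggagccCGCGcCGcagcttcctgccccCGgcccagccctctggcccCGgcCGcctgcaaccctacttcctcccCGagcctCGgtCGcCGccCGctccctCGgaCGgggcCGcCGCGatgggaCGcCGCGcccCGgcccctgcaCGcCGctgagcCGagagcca
The *Fmnl1* start held 43 CpG and was 79.3% G or C, the *Epb41l3* start held 16 and was 58.3% G or C, and the *Sorbs2* start held 10 and was 49.0% G or C, against a median of 7 CpG and 52.7% over all 32851 mouse starts in the table. The other starts held 18 and 2 CpG in *Epb41l3* and 7 and 4 in *Sorbs2*. On either strand, the E-box CAGGTG was in 20.2% and the AP-1 motif TGANTCA in 7.81% of all starts, and neither set of letters was in any of the 7 starts of these genes.

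Levels are CPM on a scale shared by all 18 libraries, in the order of replicates 1, 2 and 3. A log2 fold change (log2FC) with its standard error (SE) comes from the fit of the 9 libraries of that line. *Epb41l3* (ENSMUSG00000024044, chr17:69506150-69639325, plus strand, build mm9) ranked first of all 13882 tested genes, by p, for the difference of its response between the lines upon either knockout, a rank that its choice reflects. In 67NR WT it lay at 7.21, 9.55 and 7.65 CPM, in *Kmt2c* KO at 183, 179 and 220, and in *Kmt2d* KO at 135, 137 and 136. In 168FARN WT it lay at 235, 223 and 182 CPM, in *Kmt2c* KO at 190, 199 and 172, and in *Kmt2d* KO at 177, 157 and 141. Thus every 67NR KO library stood far above every 67NR WT library, while in 168FARN *Kmt2c* KO overlapped WT and *Kmt2d* KO lay just below it. The log2FC in 67NR was 4.66 (SE 0.18) upon *Kmt2c* loss and 4.14 (SE 0.17) upon *Kmt2d* loss, and in 168FARN it was −0.19 (SE 0.16) and −0.42 (SE 0.16). *Epb41l3* in 67NR *Kmt2c* KO reached the level of 168FARN WT, with overlapping libraries, and in 67NR *Kmt2d* KO it stayed 1.57-fold below 168FARN WT.

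*Palmd* (ENSMUSG00000033377, chr3:116621174-116671905, minus strand) was read in 67NR and all but missing from 168FARN. In 67NR WT it lay at 73.0, 71.9 and 65.7 CPM, in *Kmt2c* KO at 0.209, 0.367 and 0.376, and in *Kmt2d* KO at 2.66, 2.54 and 4.82. The 3 groups did not overlap, and the *Kmt2c* KO libraries, with 16, 24 and 16 reads, were the lowest. Its log2FC in 67NR was −7.72 (SE 0.37) upon *Kmt2c* loss and −4.32 (SE 0.31) upon *Kmt2d* loss. In 168FARN 1 read was counted in WT replicate 3 and 0 in the other 8 libraries. For a group with a count of 0, 3 reads over the group correspond to 0.0288 CPM for *Kmt2c* loss and 0.0474 CPM for *Kmt2d* loss, a limit from counting error only. The ratio of 67NR WT to 168FARN WT was 7400, with an exact counting interval of 1330 to 292000. The fitted difference of response between the lines was −5.665 (SE 45.87) for *Kmt2c* and −2.264 (SE 7.259) for *Kmt2d*, so its size cannot be read.

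*Sorbs2* (ENSMUSG00000031626, chr8:46593148-46913259, plus strand) behaved like *Palmd* in 67NR but was also read in 168FARN. In 67NR WT it lay at 127, 149 and 124 CPM, in *Kmt2c* KO at 5.86, 6.39 and 5.66, and in *Kmt2d* KO at 16.2, 16.6 and 23.1. In 168FARN WT it lay at 4.31, 4.92 and 6.11 CPM, in *Kmt2c* KO at 5.56, 7.32 and 7.82, and in *Kmt2d* KO at 3.07, 2.504 and 3.01. The 67NR *Kmt2c* KO libraries thus overlapped the 168FARN WT range, whereas 67NR *Kmt2d* KO stayed 3.64-fold above 168FARN WT. In 168FARN the log2FC was 0.43 (SE 0.25) in *Kmt2c* KO, which overlapped WT, and −0.82 (SE 0.25) in *Kmt2d* KO, which did not. The difference of the 67NR from the 168FARN log2FC was −4.91 (SE 0.29) for *Kmt2c* and −2.01 (SE 0.28) for *Kmt2d*.

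Muscle is a tissue in which *Sorbs2* is known to act, and muscle markers moved in 67NR too. Their summed level was 141 to 318 CPM in 67NR WT, 41.4 to 61.7 upon *Kmt2c* loss, 56.1 to 83.8 in *Kmt2d* KO and 8.20 to 35.9 in 168FARN. Of 8 markers 4 were at 0 in the 67NR groups, among them the muscle regulators *Myog* and *Myod1*, which were at 0 in every group. In both 67NR contrasts 2 of the 3 tested markers were higher and 1 was lower, where 35.3% of all genes passed upon *Kmt2c* loss and 25.5% upon *Kmt2d* loss. Cardiac troponin T (*Tnnt2*) averaged 206 CPM in WT against 19.1 and 39.9 in the KO groups, and desmin (*Des*) averaged 2.08 against 29.6 and 24.2. The part of these genes, or of the epithelial markers above, in the levels of *Sorbs2* and *Palmd* was not tested.

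*Arhgef10* (ENSMUSG00000071176, chr8:14911663-15001085, plus strand) shared the pattern of *Epb41l3* from a lower level. In 67NR WT it lay at 0.638, 0.705 and 0.689 CPM, in *Kmt2c* KO at 14.4, 14.2 and 20.9, and in *Kmt2d* KO at 9.30, 10.2 and 13.6. In 168FARN WT it lay at 35.3, 36.8 and 38.7 CPM, in *Kmt2c* KO at 50.2, 46.8 and 46.9, and in *Kmt2d* KO at 32.0, 30.5 and 34.7. The exchange factor was thus barely read in 67NR WT, with 30 to 54 reads a library, and well above that in all other groups. The log2FC in 67NR was 4.68 (SE 0.26) and 4.098 (SE 0.26), and in 168FARN it was 0.38 (SE 0.13) and −0.17 (SE 0.13). Even so, 67NR KO cells stayed below 168FARN WT, 2.24-fold in *Kmt2c* KO and 3.35-fold in *Kmt2d* KO, with no overlap.

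*Fmnl1* (ENSMUSG00000055805, chr11:103032421-103060215, plus strand) moved in opposite directions in the lines. In 67NR WT it lay at 50.4, 41.8 and 56.8 CPM, in *Kmt2c* KO at 13.3, 9.40 and 8.24, and in *Kmt2d* KO at 18.8, 20.7 and 23.6. In 168FARN WT it lay at 0.718, 1.77 and 0.947 CPM, in *Kmt2c* KO at 9.04, 10.2 and 7.63, and in *Kmt2d* KO at 2.37, 2.65 and 2.30. All 67NR KO libraries lay below all 67NR WT libraries, and all 168FARN KO libraries lay above all 168FARN WT libraries. The log2FC in 67NR was −2.18 (SE 0.22) upon *Kmt2c* loss and −1.17 (SE 0.21) upon *Kmt2d* loss, and in 168FARN it was 2.96 (SE 0.37) and 1.10 (SE 0.36). Since the formin is best known from blood cells, the 10 haematopoietic markers were summed: they lay at 23.2 to 42.3 CPM in 67NR WT, 23.6 to 71.0 in its *Kmt2c* KO, 30.1 to 82.1 in its *Kmt2d* KO and 3.91 to 94.9 in 168FARN. Nearly all of this was *Cd68*, a lysosomal protein of macrophages that other cells also make, with means of 27.2 to 61.7 CPM, and each of the other 9 markers averaged at most 2.62 CPM in any group. *Ptprc*, which encodes the pan-leukocyte antigen CD45, averaged at most 0.050 CPM in any group.

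*Tacc1* (ENSMUSG00000065954, chr8:26265024-26311921, minus strand) differed from the other genes in starting from a similar level in both lines. In 67NR WT it lay at 12.7, 14.3 and 10.9 CPM, in *Kmt2c* KO at 1.29, 0.948 and 1.10, and in *Kmt2d* KO at 1.62, 1.47 and 1.41. In 168FARN WT it lay at 10.5, 12.2 and 9.98 CPM, in *Kmt2c* KO at 12.4, 12.8 and 12.2, and in *Kmt2d* KO at 9.91, 8.09 and 9.49. Every 67NR KO library was therefore below every other library of the series for this centrosomal gene. Its log2FC in 67NR was −3.42 (SE 0.24) and −3.00 (SE 0.24), and in 168FARN it was 0.20 (SE 0.18) and −0.24 (SE 0.18).

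**Figure D1:**
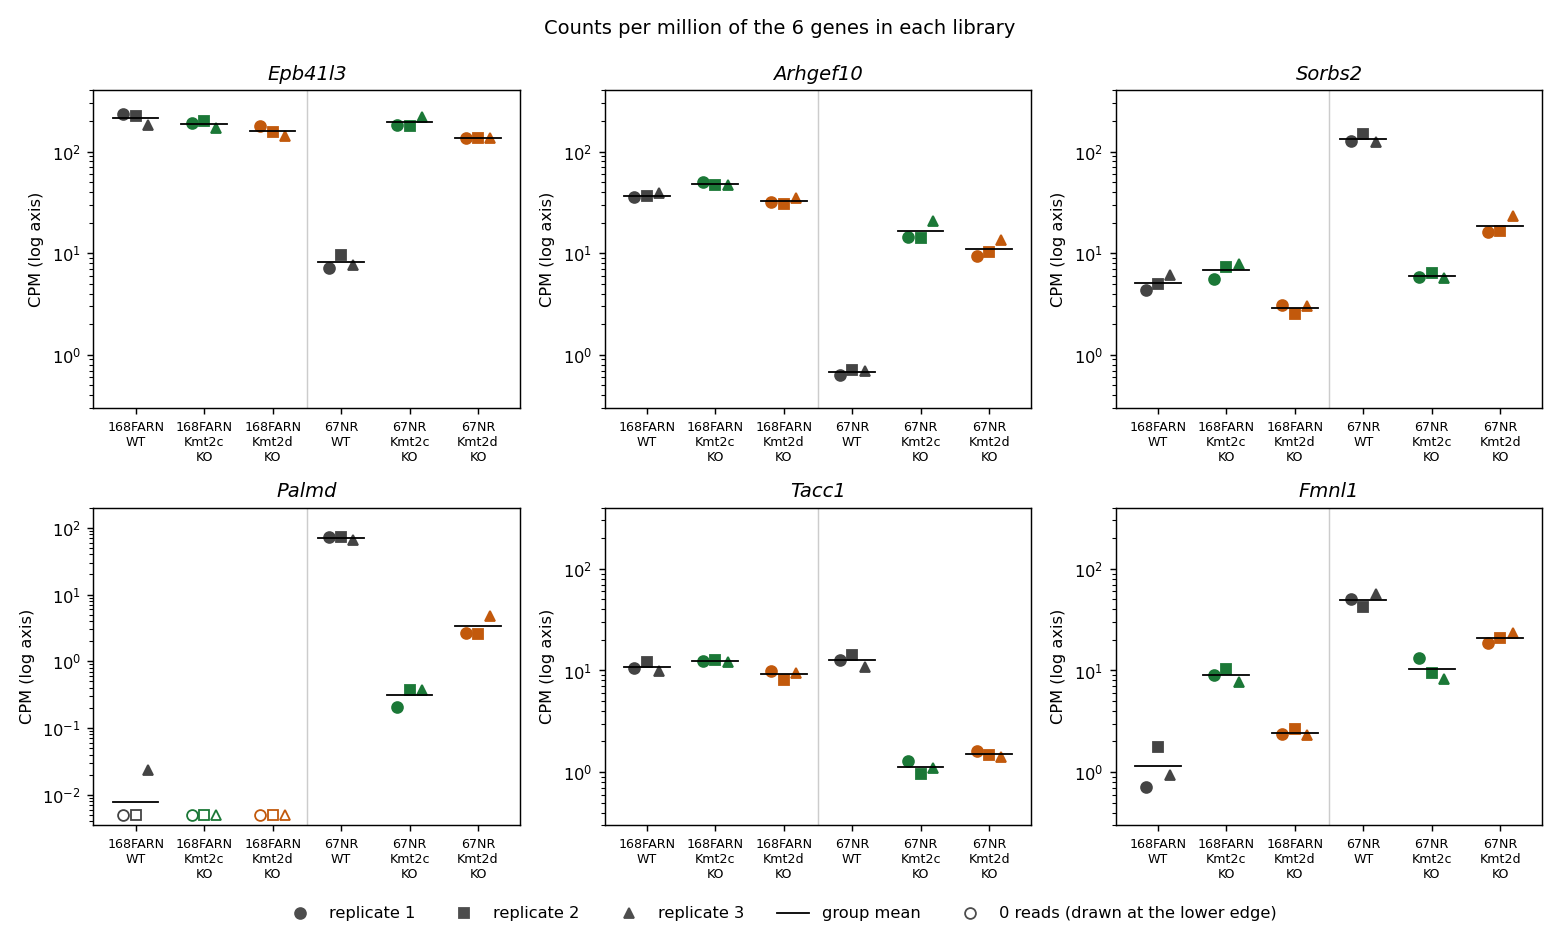
RNA level of the 6 genes in all 18 libraries, in CPM on a log axis, with 1 panel a gene, 1 point a library, a line at each group mean and groups along the horizontal axis; libraries with 0 reads are open points at the lower edge. *Epb41l3* and *Arhgef10* are low only in 67NR WT, *Palmd* and *Sorbs2* are high only in 67NR WT, *Fmnl1* moves in opposite directions in the lines, and *Tacc1* is low in both 67NR KO groups.

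Calls needed an absolute log2FC over 0.6 and an adjusted p under 0.1. In 67NR 6 of 6 genes passed upon loss of *Kmt2c*, where 35.3% of all 13662 tested genes did, and 6 of 6 upon loss of *Kmt2d*, where 25.5% did. In 168FARN 1 of 5 tested genes, *Fmnl1*, passed upon loss of *Kmt2c*, where 0.359% of 12253 genes did, and 0 of 5 upon loss of *Kmt2d*, where 0.286% did. DESeq2 gave the same calls, but the call of *Fmnl1* in 168FARN *Kmt2c* KO was not kept in all of 13 alternatives. With the replicate number as a block, and likewise without replicate 3 of every group, *Fmnl1* and *Sorbs2* passed in 168FARN *Kmt2d* KO, where 5.9% and 11.0% of all genes did. KO and WT libraries did not overlap for 6 of 6 genes in 67NR upon either loss, as for 46.9% of tested genes upon *Kmt2c* loss and 38.3% upon *Kmt2d* loss. In 168FARN they did not overlap for 2 of 6 genes upon *Kmt2c* loss (10.5% of tested genes) and for 5 of 6 upon *Kmt2d* loss (10.3%), where *Palmd* was the exception. Nothing is read from these counts, since the same contrasts chose the genes. For the 5 genes tested in both lines, which leaves out *Palmd*, the log2FC of 67NR minus that of 168FARN ranged from −5.23 for *Fmnl1* to 4.77 for *Epb41l3* for *Kmt2c* and from −2.82 for *Tacc1* to 4.50 for *Epb41l3* for *Kmt2d*, in contrasts where 16.0% and 10.6% of all genes passed.

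**Figure D2:**
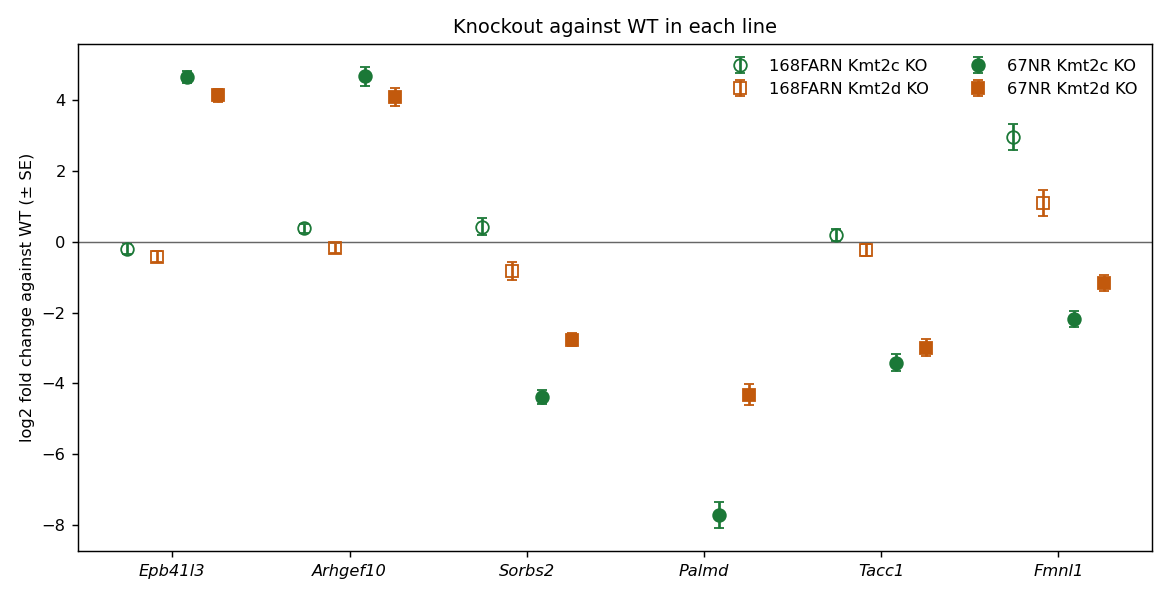
Log2 fold change of each gene, KO against WT, in 168FARN and in 67NR, with the standard error as a bar, for *Kmt2c* KO and *Kmt2d* KO. In 67NR the values run from −7.72 for *Palmd* to 4.68 for *Arhgef10* upon *Kmt2c* loss, and in 168FARN from −0.19 for *Epb41l3* to 2.96 for *Fmnl1*; *Palmd* has no 168FARN value because it did not pass the filter on low counts there.

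The levels in 67NR WT entered the choice of the genes, so the WT lines are compared here as a description. Mean CPM in 67NR WT was 26.3-fold lower than in 168FARN WT for *Epb41l3* and 54.5-fold lower for *Arhgef10*, and it was 26.1-fold higher for *Sorbs2* and 43.3-fold higher for *Fmnl1*. For *Tacc1* the ratio was 1.16 and the WT libraries of the lines overlapped. Of the 6 genes 5 passed the thresholds between the WT lines, where 39.2% of 13882 tested genes did, and the WT libraries did not overlap for the same 5, as for 46.6% of genes; nothing is read from these counts. Set against 168FARN WT, both 67NR KO groups lay between the WT levels of the lines, or at that of 168FARN, for *Epb41l3*, *Arhgef10*, *Palmd*, *Sorbs2* and *Fmnl1*. The libraries did not overlap with 168FARN WT for 4 of 6 genes in 67NR *Kmt2c* KO (39.5% of tested genes) and for 6 of 6 in *Kmt2d* KO (41.4%). *Tacc1* moved away from 168FARN WT: it ended 9.80-fold lower than 168FARN WT in 67NR *Kmt2c* KO and 7.27-fold lower in *Kmt2d* KO. *Fmnl1* in the 67NR KO groups was still 8.996-fold and 18.3-fold above 168FARN WT.

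The difference between loss of *Kmt2c* and loss of *Kmt2d* is the difference of the very effects that chose the genes, so it too is given as a description. In both lines the *Kmt2c* KO pool had the smaller share of mutant reads in the study, and the part of this in the values was not tested. In 67NR 3 of the 6 genes passed the thresholds between the KO groups, where 1.41% of 13662 genes did (18 higher and 175 lower in *Kmt2c* KO, or 8 and 33 when scaled by total counts). The libraries of the KO groups did not overlap for any of the 6 (19.4% of tested genes). The log2FC of *Kmt2c* KO over *Kmt2d* KO was −3.40 (SE 0.32) for *Palmd*, −1.63 (SE 0.17) for *Sorbs2* and −1.02 (SE 0.22) for *Fmnl1*, the 3 genes that passed, and *Fmnl1* no longer passed in 8 of 14 alternatives. It was 0.52 (SE 0.15) for *Epb41l3*, 0.58 (SE 0.22) for *Arhgef10* and −0.42 (SE 0.23) for *Tacc1*.

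In 168FARN edgeR called 0 of 5 genes between the KO groups, where it called 0.253% of all tested genes. An unadjusted p under 0.05 was reached by 4, and by 616 of all 12253 genes. The libraries did not overlap for 4 (9.17% of tested genes), and DESeq2 called 2, *Fmnl1* and *Sorbs2* (1.31% of all genes). The difference of *Kmt2c* KO from *Kmt2d* KO was 1.86 (SE 0.36) for *Fmnl1*, 1.25 (SE 0.25) for *Sorbs2* and 0.55 (SE 0.13) for *Arhgef10*. In the fit with the replicate number as a block *Fmnl1* (1.85) and *Sorbs2* (1.23) passed, where 5.33% of all genes did. Without replicate 3 of every group, *Arhgef10* passed as well at 0.61, where 9.29% did. The values of *Sorbs2* and *Fmnl1* thus had the opposite sign in 168FARN from that in 67NR, and this difference between the lines was not tested.

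Compared per length of exon, as CPM per kilobase of exon (RPKM), the order of the 6 genes turned over between the lines. In 168FARN WT *Epb41l3* led at 36.6 ± 4.75 (SD, n = 3), followed by *Arhgef10* at 4.01 ± 0.184 and *Tacc1* at 1.42 ± 0.155. *Sorbs2* at 0.263 ± 0.047 and *Fmnl1* at 0.235 ± 0.114 came next and did not differ beyond their spread, and *Palmd* was last. In 67NR WT *Palmd* led at 18.4 ± 1.03 RPKM, followed by *Fmnl1* at 10.2 ± 1.55 and *Sorbs2* at 6.87 ± 0.683. *Tacc1* at 1.64 ± 0.225 and *Epb41l3* at 1.39 ± 0.213 were within their spread, and *Arhgef10* was last at 0.0736 ± 0.0038. In both 67NR KO groups *Epb41l3* came first, at 33.2 RPKM in *Kmt2c* KO and 23.3 in *Kmt2d* KO, and *Fmnl1* second at 2.12 and 4.32. The leading gene of the 67NR KO groups was therefore that of every 168FARN group, and *Palmd*, first in 67NR WT, fell to last in *Kmt2c* KO at 0.0832.

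The relatives and partners of these genes were taken from lists of families and known binding partners: 78 genes, of which 74 were tested in 67NR and 67 in 168FARN. In 67NR 33 of 74 passed upon loss of *Kmt2c*, 17 higher and 16 lower, or 44.6% against 35.3% of all genes, with a median log2FC of 0.07 against −0.02. Upon loss of *Kmt2d* 23 passed, 11 higher and 12 lower, or 31.1% against 25.5%, with a median of −0.06 against −0.02. Scaling by total counts in place of TMM gave 8 higher and 16 lower upon *Kmt2d* loss, and it moved the median of all genes in that contrast to −0.21. In 168FARN edgeR called 0 of 67 in either knockout, where 0.359% and 0.286% of all 12253 genes passed. An unadjusted p under 0.05 was reached by 7 and 6 of them, and by 725 and 647 of all genes. DESeq2 called 3 (*Add2*, *Diaph2* and *Mpp1*) and 0 there, where it called 1.65% and 1.36% of all genes. The fit with the replicate number as a block called 8 (7.23% of all genes) and 6 (5.9%).

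The relatives of *Epb41l3* that passed in 67NR were lower in KO cells, whereas *Epb41l3* was higher. Of the 6 tested members of the 4.1 protein family 5 were lower and 0 higher upon *Kmt2c* loss, and 3 were lower and 0 higher upon *Kmt2d* loss, with medians of −1.22 and −0.93. Here and for the lists that follow, 35.3% of all genes passed upon *Kmt2c* loss and 25.5% upon *Kmt2d* loss, in either direction. *Epb41l5*, a 4.1 protein needed for epithelial cells to become mesenchymal in the embryo, averaged 70.1 CPM in 67NR WT, against 15.2 and 27.1 in the KO groups (log2FC −2.12, SE 0.15, adjusted p = 1.046e-05, and −1.29, SE 0.14, adjusted p = 0.00025). *Epb41l2*, the widely expressed 4.1G protein, fell from 340 to 125 and 154 CPM (−1.37, SE 0.12, adjusted p = 4.623e-05, and −1.07, SE 0.12, adjusted p = 0.00034). *Epb41l4a* changed by −1.07 (SE 0.23, adjusted p = 0.0069) and −1.01 (SE 0.23, adjusted p = 0.014). *Epb41l1*, the neuronal 4.1N protein, had a log2FC of 0.48 and −0.07 and did not pass.

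Among the 15 tested partners of the membrane skeleton 5 were higher and 4 lower upon *Kmt2c* loss (35.3% of all genes passed). Upon *Kmt2d* loss 4 were higher and 3 lower (25.5% of all genes). *Gypc*, which encodes glycophorin C, a membrane anchor of 4.1 proteins in red cells, averaged 2.10 CPM in 67NR WT against 40.9 and 28.0 in the KO groups (log2FC 4.35, SE 0.38, adjusted p = 3.876e-05, and 3.80, SE 0.37, adjusted p = 0.00013). *Ank2*, which encodes ankyrin-B, averaged 2.16 CPM against 7.52 and 5.22 (1.89, SE 0.40, adjusted p = 0.0058, and 1.36, SE 0.39, adjusted p = 0.036, the latter lost in 4 of 14 alternatives). Like *Epb41l3*, *Gypc* was thus low in 67NR WT and higher in both KO groups, and it averaged 13.6 to 19.7 CPM in the 168FARN groups. In the paralemmin family, *Palm* had 0.61 (SE 0.21, adjusted p = 0.051, lost in 4 of 14 alternatives) upon *Kmt2c* loss and 0.28, which did not pass, upon *Kmt2d* loss.

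**Figure D3:**
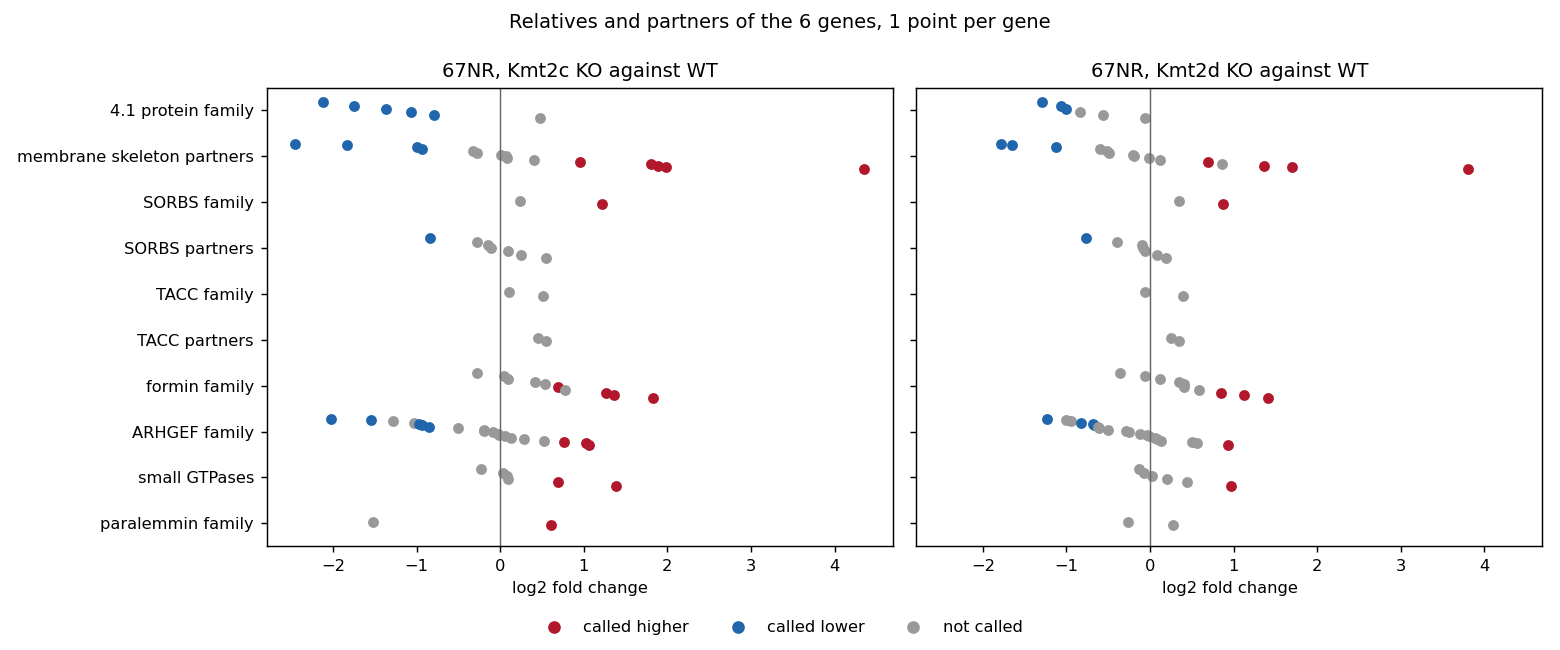
Log2 fold change of the tested relatives and partners in 67NR, *Kmt2c* KO and *Kmt2d* KO against WT, with 1 point a gene and 1 row a list; the formins *Daam2* and *Fmn2*, which had a group at or near 0 reads, are left out. The 4.1 protein family lies mostly left of 0, with *Epb41l5* at −2.12 upon *Kmt2c* loss, and the formins mostly right of it.

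Among the adaptors, *Sorbs3*, which encodes the vinculin-binding protein vinexin, moved against *Sorbs2* in 67NR, by 1.22 (SE 0.29, adjusted p = 0.010) upon *Kmt2c* loss and 0.87 (SE 0.29, adjusted p = 0.058, lost in 7 of 14 alternatives) upon *Kmt2d* loss. Of the 7 tested SORBS partners 1 was lower and 0 higher in both, where 35.3% and 25.5% of all genes passed. This gene, afadin (*Afdn*), an actin-binding protein of cell junctions, averaged 575 CPM in WT against 303 and 321 (−0.84, SE 0.14, adjusted p = 0.0016, and −0.76, SE 0.14, adjusted p = 0.0043). The relatives of *Tacc1* did not pass in 67NR: *Tacc2* had a log2FC of 0.51 (SE 0.17) and 0.39 (SE 0.17), and *Tacc3*, a spindle protein, 0.10 (SE 0.97) and −0.06 (SE 0.97). Their spindle partners *Ckap5* and *Aurka* did not pass either, with 0.45 (SE 0.21) and 0.54 (SE 0.74) upon *Kmt2c* loss.

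For the formins, 12 tested genes gave 5 higher and 1 lower upon *Kmt2c* loss (35.3% of all genes passed). They gave 4 higher and 1 lower upon *Kmt2d* loss (25.5% of all genes), and the medians were 0.61 and 0.41. *Diaph3*, a formin of the contractile ring and of cell shape, averaged 15.0 CPM in 67NR WT against 50.1 and 37.9 (1.83, SE 0.21, adjusted p = 0.00017, and 1.41, SE 0.20, adjusted p = 0.0012). *Daam2* was the 1 formin of the list that was lower, as *Fmnl1* was. Its 191 reads in 67NR WT were spread as 107, 68 and 16, and all 6 KO libraries held 0, so it was at least 59.9-fold lower in *Kmt2c* KO and at least 48.1-fold lower in *Kmt2d* KO, with 3 counts over the group as the floor. *Fmn2* had 2 reads over the 67NR WT group, 145 upon *Kmt2c* loss and 81 upon *Kmt2d* loss, a ratio of 77.0 (exact counting interval 20.9 to 642) and of 53.6 (14.4 to 450).

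Of the 20 tested exchange factors related to *Arhgef10*, 3 were higher and 5 lower upon *Kmt2c* loss and 1 was higher and 4 lower upon *Kmt2d* loss. Of all genes 35.3% and 25.5% passed in these contrasts, so nothing is read from these counts. *Arhgef16*, a RhoG exchange factor, changed by −2.03 (SE 0.31, adjusted p = 0.00097) and −1.23 (SE 0.30, adjusted p = 0.018), and *Arhgef18*, an exchange factor of epithelial junctions, by −0.97 (SE 0.20, adjusted p = 0.0053) and −0.83 (SE 0.20, adjusted p = 0.017). Of the 6 tested small GTPases 2 were higher upon *Kmt2c* loss and 1 upon *Kmt2d* loss, and none was lower. Against the same 35.3% and 25.5% of all genes, nothing is read from these counts either. *Rhob* averaged 173 CPM in 67NR WT against 428 and 321 (1.39, SE 0.19, adjusted p = 0.00047, and 0.97, SE 0.18, adjusted p = 0.0053). *Rhog* had 0.69 (SE 0.20, adjusted p = 0.027, lost in 2 of 14 alternatives) and 0.44, which did not pass.

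Genes with the most similar pattern were taken as the 3 with the highest Pearson correlation of log2(CPM + 1) with each gene over the 18 libraries. The libraries share their line and genotype, so the correlations describe group patterns and carry no test. With each line centred on its own mean, 4 of the 18 genes named this way were still among the first 3 (*Prkd1*, *Dtx3l*, *Fam221a* and *Ly9*). *Epb41l3* was closest to *Prkd1*, a protein kinase (r = 0.990), to *Zeb1*, a transcription factor of epithelial-mesenchymal transition (r = 0.990), and to *Scamp5* (r = 0.989). *Prkd1* averaged 23.0, 23.8 and 16.7 CPM in WT, *Kmt2c* KO and *Kmt2d* KO of 168FARN and 1.53, 23.4 and 16.2 in those of 67NR, which is the course of *Epb41l3* at a lower level. *Arhgef10* was closest to *Evl*, an actin-elongating protein of the Ena/VASP family (r = 0.989), which averaged 39.4, 47.9 and 41.2 CPM in 168FARN and 1.12, 19.6 and 12.3 in 67NR, then to *Ppic* (r = 0.988) and *Gm3716* (r = 0.985).

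*Sorbs2* was closest to *Palmd* itself (r = 0.981), then to *Dtx3l*, a ubiquitin ligase (r = 0.980), and to *Cdon*, a cell surface receptor (r = 0.972). *Dtx3l* averaged 2.94, 2.30 and 1.70 CPM in 168FARN and 40.9, 3.44 and 9.78 in 67NR. *Palmd* was closest to *Plppr4* (r = 0.991), *Ly9* (r = 0.990) and *Mpp3* (r = 0.990), and *Plppr4*, like *Palmd*, was at 0 in 168FARN, with means of 10.9, 0.297 and 0.985 CPM in 67NR. *Fmnl1* was closest to *Fam221a* (r = 0.968), *1500011B03Rik* (r = 0.965) and *Tfpi*, an inhibitor of coagulation (r = 0.941). *Fam221a* averaged 0.227, 1.27 and 0.586 CPM in 168FARN and 6.84, 1.95 and 3.06 in 67NR. *Tacc1* was closest to *Antxr1*, an anthrax toxin receptor (r = 0.961), at 15.4, 15.5 and 15.6 CPM in 168FARN and 16.7, 2.87 and 2.71 in 67NR, then to *Ly6e* (r = 0.943) and *Usp54* (r = 0.934), which with the lines centred took places 201, 78 and 453. Among the 6 genes the pairs *Epb41l3* and *Arhgef10* (r = 0.925) and *Sorbs2* and *Palmd* (r = 0.981) ran together, *Epb41l3* and *Palmd* ran opposite (r = −0.963), and *Tacc1* had r from −0.32 to 0.14 with the others.

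In position, 3 of the 6 genes (*Sorbs2*, *Arhgef10* and *Tacc1*) lie on chromosome 8, a feature that the choice of genes did not use. Over 697 tested genes of chromosome 8 the median log2FC in 67NR was −0.29 upon *Kmt2c* loss and −0.23 upon *Kmt2d* loss, against −0.02 over all genes in both. Upon *Kmt2c* loss 82 were higher and 156 lower, upon *Kmt2d* loss 59 and 103, and 1 of the 20 chromosomes had a lower median in each contrast, chromosome 1 at −0.31 and chromosome 17 at −0.32. Over all 13662 tested genes 2445 were higher and 2383 lower (35.3%) upon *Kmt2c* loss, and 1903 and 1579 (25.5%) upon *Kmt2d* loss. Other chromosomes were shifted too, with the highest medians on chromosome 7 at 0.48 and 0.35. Several genes overlap others in the annotation, namely *Sorbs2* with *D330022K07Rik*, *Gm16351*, *Gm16352* and *SNORA17*, *Arhgef10* with *Gm16350*, *Fmnl1* with *RP23-341C5.10* and *Palmd* with *4930455H04Rik*. Whether strand was used in counting is not given in the sources used here, so reads of such pairs may not have been told apart.

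Genes within 1 Mb of each of the 6 were counted in 67NR. Of the 100 tested neighbours 33.0% passed upon *Kmt2c* loss and 22.0% upon *Kmt2d* loss, against 35.3% and 25.5% of all genes. Around *Palmd* 5 of 17 were lower and 0 higher upon *Kmt2c* loss, and 4 were lower and 0 higher upon *Kmt2d* loss. *Frrs1*, 14.5 kb away, changed by −1.29 (adjusted p = 0.0029) and −0.65 (adjusted p = 0.078), *1700061I17Rik*, 91.5 kb away, by −4.07 (adjusted p = 0.0012) and −3.64 (adjusted p = 0.0034), and *Plppr4*, 350 kb away, by −5.09 (adjusted p = 3.769e-05) and −3.40 (adjusted p = 0.00041). Around *Sorbs2* 6 of 16 were lower and 1 higher, then 3 lower and 1 higher, and the nearest non-overlapping neighbour, the receptor gene *Tlr3* at 97.2 kb, changed by −2.42 (adjusted p = 3.529e-05) and −1.51 (adjusted p = 0.00083). On the other side *1700029J07Rik*, 125.7 kb away, had 1.16 in both contrasts and did not pass.

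The counts of neighbours that follow are likewise set against 35.3% of all genes upon *Kmt2c* loss and 25.5% upon *Kmt2d* loss. Around *Arhgef10* 3 of 5 were higher and 0 lower upon *Kmt2c* loss and 1 was higher upon *Kmt2d* loss, yet the nearest, *Cln8* at 9.94 kb, had −0.18 and −0.28 and did not pass. Around *Epb41l3* 1 of 3 was higher in both contrasts, and the nearest, *Zbtb14* at 93.1 kb, had −0.17 and −0.06 and did not pass. Around *Fmnl1*, in a gene-dense stretch of chromosome 11, 9 of 36 were higher and 2 lower upon *Kmt2c* loss and 4 higher and 3 lower upon *Kmt2d* loss. *Hexim2*, 31.2 kb from *Fmnl1*, changed by 1.44 (adjusted p = 0.0090) upon *Kmt2c* loss, against the direction of *Fmnl1*, and had 0.60 upon *Kmt2d* loss. *1700023F06Rik*, 45 bases from the other end of *Fmnl1*, had −1.51 (adjusted p = 0.11) and −0.86, which did not pass. Around *Tacc1* 4 of 23 were higher in both contrasts, 2 were lower upon *Kmt2c* loss and 1 upon *Kmt2d* loss, and *Plekha2* at 52.4 kb changed by −0.97 (adjusted p = 0.0012) upon *Kmt2c* loss and had −0.57 upon *Kmt2d* loss, while *Letm2* on the other side had 0.12 and 0.13.

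**Figure D4:**
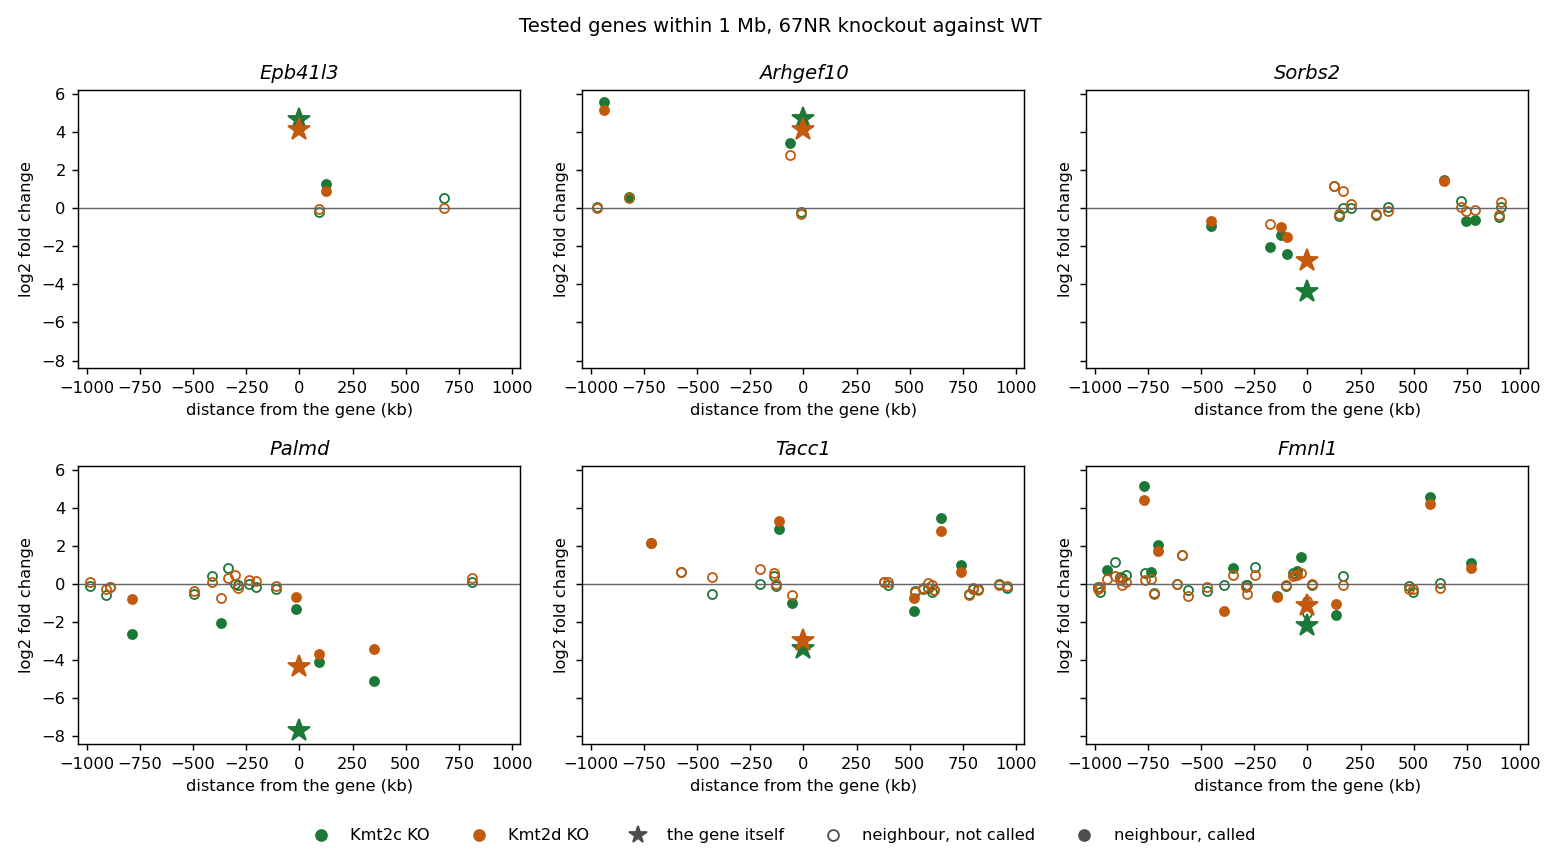
Log2 fold change in 67NR, *Kmt2c* KO and *Kmt2d* KO against WT, of the tested genes within 1 Mb of each of the 6 genes, by distance between the genes in kb, with stars for the genes themselves and filled points for called neighbours. Around *Palmd* the changed neighbours are lower, with *Plppr4* at −5.09, whereas around *Fmnl1* and *Tacc1* most of the changed neighbours are higher.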

How the data were processed

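RNA was measured in 18 libraries, 3 in each of 6 groups. According to the methods of the study, polyadenylated RNA was made into strand-specific libraries, sequenced on an Illumina instrument and aligned with STAR to build mm9 through the VIPER pipeline. The deposited tables, 1 for each line, hold the authors' raw read counts per gene symbol, with no normalization. The version and the strand setting of the counting are not given in the sources used here.

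For 67NR, 27 symbols had been turned into dates and 4 rows with duplicate symbols were dropped. Counts were scaled by TMM and tested with edgeR 4.0.16 (quasi-likelihood, robust, filterByExpr) in R 4.3.3, within the 9 libraries of each line (12253 genes in 168FARN, 13662 in 67NR) and, for WT 67NR against WT 168FARN and for differences of response, over all 18 libraries (13882 genes). P-values were adjusted by Benjamini-Hochberg over all genes of a fit, and genes were called at an adjusted p under 0.1 and an absolute log2FC over 0.6. SEs were derived from the F statistic. CPM values use the scaling over 18 libraries. The steps were run on simulated counts that held no difference between replicates of the kind seen for replicate 3, so that run does not cover it. Alternatives were DESeq2 1.42.0, other scalings, filters, a stricter threshold, the replicate number as a block, and leaving out replicates.

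Replicate numbers of a line were taken to pair the samples. Deviations of same-numbered libraries from their group means correlated at 0.62 to 0.88 in 168FARN and at 0.32 to 0.69 in 67NR. Replicates 1 and 2 of unlike number correlated to a similar degree. In 168FARN, WT 1 gave 0.70 with *Kmt2c* KO 1 and 0.71 with KO 2, and 0.70 with *Kmt2d* KO 1 and 0.60 with KO 2. In 67NR, WT 2 gave 0.40 with *Kmt2d* KO 1 and 0.32 with KO 2. These values set replicate 3 apart, but cannot show that 1 pairs with 1 and 2 with 2. The block was kept as an alternative because the study fitted genotype alone in its differential expression. For its heatmaps the study did remove batch effects between replicates, with each time of collection taken as a batch. No 2 libraries held identical values.

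The 6 genes, the lists of relatives and partners and the marker lists were chosen with earlier results of these data known. The text names the 6 genes, *Kmt2c* and *Kmt2d*, up to 3 genes of each list that were called in the most KO contrasts (ties by the larger mean absolute log2FC), the 3 genes most similar to each of the 6 over the 18 libraries, and the nearest tested gene on each side; some genes that this rule selects are not reported here. *Epb41l1*, *Tacc2*, *Tacc3*, *Ckap5*, *Aurka*, *Add2*, *Diaph2*, *Mpp1* and the marker genes were named after their values were seen. Positions and exon lengths come from GENCODE vM1 on mm9, where 20510 symbols matched by name, 1466 through an older name and 78 through a synonym, while 263 had several matches and 2066 none. Promoters come from RefSeq on GRCm38.p6. Group floors of 3 counts and counting intervals cover counting error only.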

Additional observations from a re-analysis of the deposited data

Results flagged for a closer look

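These results were singled out because the log2FC of KO against WT in 67NR differed from that in 168FARN. The values are 67NR minus 168FARN, from edgeR over all 18 libraries with adjusted p, and 16.0% of all genes passed for *Kmt2c* and 10.6% for *Kmt2d*. In the 4.1 family *Epb41l5* differed by −2.03 (SE 0.36, adjusted p = 0.0011) for *Kmt2c*, and *Epb41l2* by −1.02 (SE 0.28, adjusted p = 0.028) for *Kmt2c* and −1.06 (SE 0.28, adjusted p = 0.031) for *Kmt2d*. Among the partners of the membrane skeleton *Gypc* differed by 3.97 (SE 0.47, adjusted p = 3.503e-05) and 3.96 (SE 0.47, adjusted p = 5.051e-05), and *Ank2* by 3.13 (SE 0.74, adjusted p = 0.010) and 3.05 (SE 0.74, adjusted p = 0.019). *Ank2* had a log2FC of −1.33 (SE 0.59) and −1.75 (SE 0.61) in 168FARN, which passed with the replicate number as a block (−1.33, adjusted p = 0.0045, and −1.83, adjusted p = 0.0011).

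Among the adaptors and their partners *Sorbs3* differed by 1.35 (SE 0.47, adjusted p = 0.079) for *Kmt2c*, and *Afdn* by −0.81 (SE 0.21, adjusted p = 0.017) and −0.82 (SE 0.21, adjusted p = 0.023). Of the small GTPases and exchange factors *Rhob* differed by 1.84 (SE 0.41, adjusted p = 0.0076) and 1.39 (SE 0.41, adjusted p = 0.055) and *Arhgef18* by −1.27 (SE 0.29, adjusted p = 0.0084) and −0.95 (SE 0.29, adjusted p = 0.062).

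Of the 6 genes themselves, some had all KO libraries of one line above and all KO libraries of the other line below the WT libraries. The differences were 4.50 for *Epb41l3* upon *Kmt2d* loss, −5.23 for *Fmnl1* upon *Kmt2c* loss, −2.32 for *Fmnl1* upon *Kmt2d* loss and 4.21 for *Arhgef10* upon *Kmt2d* loss. For *Epb41l3* and *Arhgef10* the 168FARN part was small, at −0.42 (SE 0.16) and −0.17 (SE 0.13). In 168FARN the KO and WT libraries did not overlap for 10.5% of all tested genes upon *Kmt2c* loss and for 10.3% upon *Kmt2d* loss. These differences were not tested, since the genes were chosen for them.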

How the results depend on the processing

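No direction of the 6 genes reversed under any alternative. Between the KO groups of 168FARN the count of called genes was 0 of 5, where 0.253% of all genes passed. It was 2 under DESeq2 (1.31% of all genes), 2 with the replicate block (5.33%) and 3 without replicate 3 of every group (9.29%). Leaving out replicate 3 everywhere was an alternative chosen after seeing the data. With single replicates left out the count was 0 to 0. In 67NR that count was 3, and 2 to 3 with single replicates left out, and between the WT lines it was 5, and 5 to 5. Of the relatives and partners in 168FARN, 0 were called upon loss of *Kmt2c*. The count was 3 under DESeq2 (3.9% of those tested, against 1.65% of all genes). It was 8 with the replicate block (11.9% against 7.23%) and 8 without replicate 3 of every group (11.6% against 14.5%). Upon loss of *Kmt2d* 0 were called, against 6 with the replicate block (8.96% against 5.9%) and 10 without replicate 3 of every group (14.5% against 11.0%). Leaving out single replicates gave 0 to 0 there. In 67NR the stricter threshold (adjusted p under 0.05, absolute log2FC over 1) took 33 to 21 upon *Kmt2c* loss and 23 to 14 upon *Kmt2d* loss, and leaving out single replicates gave 28 to 39 and 20 to 31. *Diaph3* in 168FARN reversed without replicate 3 of every group, from 0.22 to −0.81 upon *Kmt2c* loss and from 0.02 to −0.85 upon *Kmt2d* loss. The cause of these changes was not tested.

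Over all genes, the replicate block raised the calls in 168FARN from 44 to 886 upon *Kmt2c* loss, from 35 to 723 upon *Kmt2d* loss and from 31 to 653 between the KO groups. It raised those between the 67NR KO groups from 193 to 995, and the differences of response from 2226 to 4805 for *Kmt2c* and from 1471 to 3939 for *Kmt2d*. Scaling by total counts gave 1430 higher and 2139 lower genes in 67NR upon *Kmt2d* loss, against 1903 and 1579. Depth limits *Palmd* in 168FARN, where no direction could be read.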
